A study of Homo sapiens with 18 samples.

Results

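The genes described here control whether a tumour cell divides or rests: NR2F1, BHLHE41 and BHLHE40, which are linked to tumour cell dormancy, the cyclin-dependent kinase inhibitor genes CDKN1A, CDKN1B, CDKN2A and CDKN2B, and CCND1. Their chromatin was followed as all peak summits that fall into 7 windows of the hg19 genome build set by position, 30 to 65 kb long and 340 kb in all. CDKN2A and CDKN2B share a window, so the 8 genes have 7 windows. The windows held 460 of the 946841 summits on chromosomes 1 to 22 and X, or 0.0486%. By mark these were 147 of 290337 H3K27ac, 250 of 547354 H3K4me1 and 63 of 109150 H3K4me3 summits.

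Cells in the G1 phase of the cell cycle pass into S phase when D-type cyclins, among them cyclin D1 from CCND1, activate their kinases and the retinoblastoma protein is phosphorylated. The INK4 proteins from CDKN2A and CDKN2B and the CIP/KIP proteins from CDKN1A and CDKN1B hold this step back. CDKN1A and CDKN2B are textbook target genes of TGF-β in epithelial cells, and TGF-β signalling is known to keep disseminated tumour cells in dormancy. NR2F1 encodes an orphan nuclear receptor and BHLHE41 a basic helix-loop-helix repressor, both described as dormancy regulators in other carcinomas, and BHLHE40 is the close paralogue of BHLHE41.

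ChIP-seq, which sequences the DNA pulled down with an antibody against a chromatin protein, was run on lung adenocarcinoma lines of human origin for 3 histone marks: H3K27ac, found at active promoters and enhancers, H3K4me1, typical of enhancers and promoter flanks, and H3K4me3, typical of promoters. The conditions were H2087-LCC cells given TGF-β1 (100 nM in the labels, 4 days; called TGFb here), the H2087-LCC-SO1 line (SO1), the H2030 line, and H2087-LCC cells without TGF-β1 (LCC). LCC and SO1 grew in a medium with added hormones, growth factor and albumin, whereas H2030 grew in a simpler one, so line and medium cannot be told apart for H2030. Each condition has 1 library per mark, except LCC H3K27ac, which has 2 biological replicates, and no genetic change is named in the labels. How the SO1 line was derived, and whether it is 1 clone, is not given in the sources used here. The marker genes of lung cells were not looked up.

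The number of reads behind each library is unknown, so list length stands in for it. The H3K27ac lists held 68069 summits in TGFb, 56279 in SO1, 52414 in H2030, and 50628 and 62947 in the LCC replicates. The H3K4me1 lists held 128082 to 143813 and the H3K4me3 lists 25624 to 28850 summits. Each summit is a high point of a peak and carries the authors' score, a −log10 significance whose kind (p or q) is not settled. Whether a peak is listed with several summits was not examined. Scores rise with depth, so a score is read here against its own list: "upper 5%" of a list means that 5% of its summits score at least as high. With 1 library per condition no p-value can be given, and whether a difference exceeds replicate error can be judged for H3K27ac alone, from the 2 LCC replicates.

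Promoter sequences are shown first for genes whose H3K4me3 was missing or displaced by over 1 kb in some condition. These are CDKN2A with both its RefSeq starts, CDKN1A, and NR2F1 with the first of its 2 starts. CDKN2B stands beside them as a gene of the CDKN2A window that was marked at one place throughout. BHLHE41 and BHLHE40 also had an H3K4me3 site, not their strongest, that some condition lacked. The paralogues BHLHE41 and BHLHE40 were added after their sequences had been read, because both carry an E-box, the element that basic helix-loop-helix proteins bind. Each run covers 250 bases before and 50 after a gene start and is taken from RefSeq on GRCh38.p14, a different build from that of the summits, so the coordinates of these sequences and those of the summits must not be set side by side. Capitals mark 3 motifs searched on both strands: the E-box CACGTG, the SP1 box GGGCGG and the SMAD core CAGAC. Matches to the same motif may overlap. Of 35116 promoters of this length in the RefSeq table, 7.26% hold the E-box, 45.0% the SP1 box and 45.3% the SMAD core. RefSeq promoters were matched for 7 of the 8 genes, with 9 starts. None was matched for CCND1, whose H3K4me3 was also displaced, by 1807 bp in H2030.
CDKN2A, start lower on the chromosome (chr9:21974808-21975107, minus strand): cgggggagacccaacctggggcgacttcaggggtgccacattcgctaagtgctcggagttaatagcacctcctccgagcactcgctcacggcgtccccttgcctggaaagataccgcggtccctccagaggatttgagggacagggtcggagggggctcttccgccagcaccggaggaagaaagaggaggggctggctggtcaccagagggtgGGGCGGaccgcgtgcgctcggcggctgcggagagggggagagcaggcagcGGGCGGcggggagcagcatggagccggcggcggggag
CDKN2A, start higher on the chromosome (chr9:21995275-21995574, minus strand): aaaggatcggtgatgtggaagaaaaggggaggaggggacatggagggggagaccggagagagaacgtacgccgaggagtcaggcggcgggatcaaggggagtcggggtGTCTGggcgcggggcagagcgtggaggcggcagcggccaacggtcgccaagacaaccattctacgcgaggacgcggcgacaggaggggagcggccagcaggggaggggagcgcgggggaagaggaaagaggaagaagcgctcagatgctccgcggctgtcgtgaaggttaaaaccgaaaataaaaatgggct
CDKN2B (chr9:22009256-22009555, minus strand): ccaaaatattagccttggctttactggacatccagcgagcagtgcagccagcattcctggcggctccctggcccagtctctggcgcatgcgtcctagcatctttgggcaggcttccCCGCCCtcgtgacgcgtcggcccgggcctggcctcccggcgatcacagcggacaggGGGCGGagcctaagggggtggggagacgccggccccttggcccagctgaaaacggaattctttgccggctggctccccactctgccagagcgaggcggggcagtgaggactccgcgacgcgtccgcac
CDKN1A (chr6:36678464-36678763, plus strand): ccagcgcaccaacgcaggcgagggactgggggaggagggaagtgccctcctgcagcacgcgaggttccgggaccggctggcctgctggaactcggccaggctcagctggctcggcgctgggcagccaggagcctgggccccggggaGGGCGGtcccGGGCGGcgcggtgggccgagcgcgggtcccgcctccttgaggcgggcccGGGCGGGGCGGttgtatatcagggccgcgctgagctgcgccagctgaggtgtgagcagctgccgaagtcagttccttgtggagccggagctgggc
NR2F1 (chr5:93582972-93583271, plus strand): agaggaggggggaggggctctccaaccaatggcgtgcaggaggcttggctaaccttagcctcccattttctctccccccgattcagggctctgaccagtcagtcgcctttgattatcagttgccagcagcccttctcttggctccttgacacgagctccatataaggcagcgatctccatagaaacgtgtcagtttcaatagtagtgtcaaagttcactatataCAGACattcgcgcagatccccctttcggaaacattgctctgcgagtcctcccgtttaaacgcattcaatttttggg
BHLHE41 (chr12:26124988-26125287, minus strand): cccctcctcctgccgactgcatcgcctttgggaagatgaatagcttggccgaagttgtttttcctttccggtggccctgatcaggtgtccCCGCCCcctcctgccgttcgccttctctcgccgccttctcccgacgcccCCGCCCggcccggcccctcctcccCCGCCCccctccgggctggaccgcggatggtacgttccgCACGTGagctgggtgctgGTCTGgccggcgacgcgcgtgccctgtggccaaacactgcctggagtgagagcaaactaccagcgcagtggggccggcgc
BHLHE40 (chr3:4979187-4979486, plus strand): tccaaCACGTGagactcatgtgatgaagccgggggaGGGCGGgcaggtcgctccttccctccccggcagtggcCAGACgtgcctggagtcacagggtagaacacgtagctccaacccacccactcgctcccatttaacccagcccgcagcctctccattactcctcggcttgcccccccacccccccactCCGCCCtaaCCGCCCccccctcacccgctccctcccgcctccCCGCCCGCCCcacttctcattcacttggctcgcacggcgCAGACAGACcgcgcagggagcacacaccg

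The lower CDKN2A start holds 2 SP1 boxes, the higher one a single SMAD core, and CDKN2B 2 SP1 boxes. CDKN1A holds 4 SP1 boxes and NR2F1 1 SMAD core. BHLHE41 holds 1 E-box, 3 SP1 boxes and 1 SMAD core, and BHLHE40 holds 1 E-box, 5 SP1 boxes and 3 SMAD cores. Their content of G and C bases was 69.0%, 63.3%, 67.3%, 74.3%, 51.3%, 69.3% and 68.0% in the order shown, against a median of 58.7% over all promoters of the table. NR2F1 was thus the only promoter printed that lies under that median. These are matches of letters within 300 bases and do not show that a factor binds.

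All 7 windows carried all 3 marks in every library, so no locus was without a summit of any mark. H3K4me1 summits were the most numerous, with 70 in TGFb, 64 in SO1, 56 in H2030 and 60 in LCC over all windows. H3K27ac gave 27 in TGFb, 29 in SO1, 29 in H2030, and 24 and 38 in the LCC replicates (31.0 ± 9.90, SD, n = 2), so every condition lay between the replicates. H3K4me3 gave 17 in TGFb, 16 in SO1, 12 in H2030 and 18 in LCC.

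**Figure D1:**
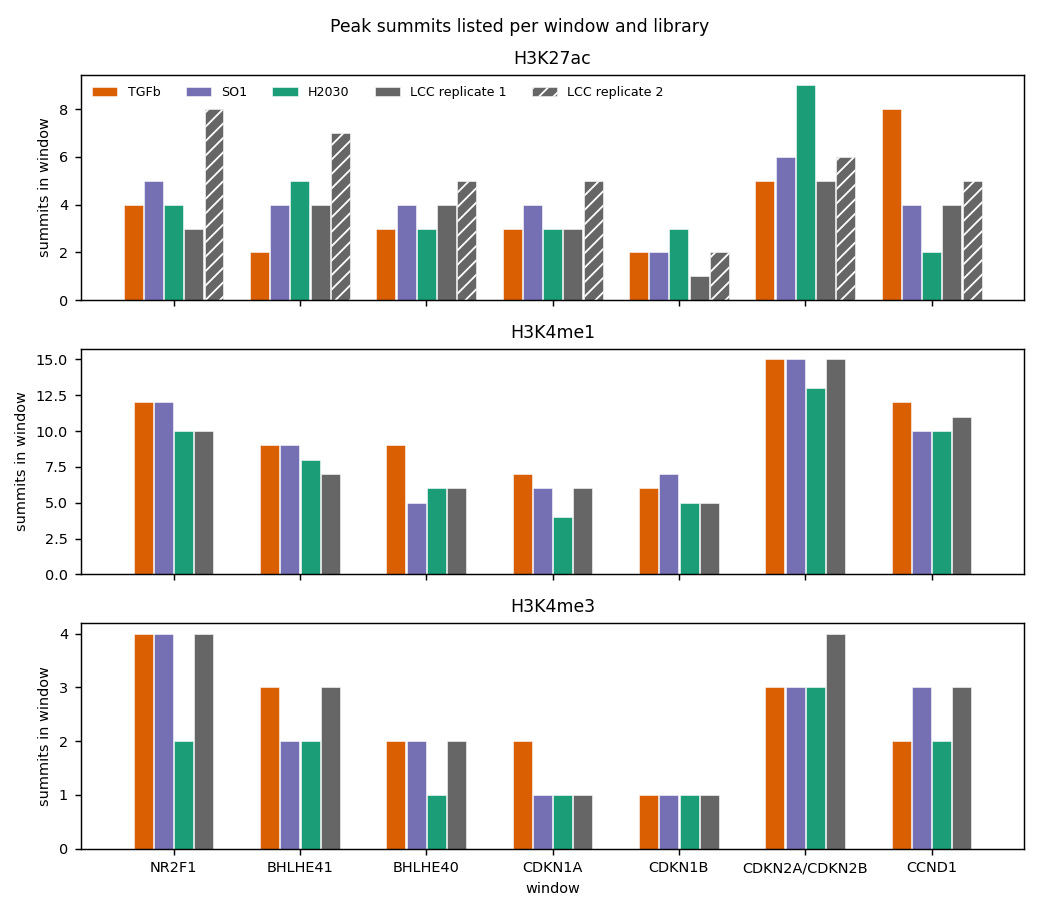
Number of peak summits (vertical axis) listed in each window (horizontal axis) for H3K27ac, H3K4me1 and H3K4me3, with a bar per library and the second LCC H3K27ac replicate hatched. H2030 had 2 H3K4me3 summits in the NR2F1 window against 4 in LCC, and TGFb had 8 H3K27ac summits in the CCND1 window against 4 and 5 in LCC.

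CDKN2A encodes both p16INK4A, an inhibitor of the cyclin D kinases, and ARF, which stabilises p53, from separate starts, and CDKN2B encodes p15INK4B. The clearest difference among the inhibitor genes lay here: H2030 had no H3K4me3 and no H3K27ac summit at the lowest strong promoter-like site of the window, which all H2087 libraries carried. At that site H3K4me3 scored 448 in TGFb (9:21974629), 479 in SO1 (9:21974621) and 304 in LCC (9:21974619), within 10 bp of each other. The nearest H2030 H3K4me3 summit was 12542 bp away from the LCC one. H3K27ac followed the same division, with 229 in TGFb, 140 in SO1, and 51.5 and 103 in the LCC replicates. In equal-length lists these were the upper 13.5% in TGFb, 21.8% in SO1, and 16.6% and 15.7% in LCC. TGFb thus ranked above both replicates and SO1 below both. The nearest H2030 H3K27ac summit was 10119 and 10092 bp from the LCC ones. H2030 still had an H3K4me1 summit with a score of 13.1 at 9:21973410.

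RefSeq lists the starts of this locus in the order CDKN2A, CDKN2B-AS1, CDKN2A and CDKN2B along the chromosome, and the p16INK4A start is the lower of the CDKN2A pair. The site missing from H2030 is, apart from a weak LCC summit of 11.4, the first H3K4me3 site of the H2087 conditions in that order, which would place it at the lower start. This reading rests on order alone, since no hg19 gene annotation was used. The strongest H3K4me1 summit of the window was weaker than elsewhere, with 16.2 in TGFb (9:21986096), 30.1 in SO1 (9:21996908), 33.0 in H2030 (9:21986497) and 18.7 in LCC (9:21986409).

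H2030 instead had H3K4me3 at 9:21987161 with a score of 225, where no H2087 library had an H3K4me3 summit within 1 kb. H2030 H3K27ac scored 141 at 9:21987152, while TGFb and SO1 had none within 1 kb, LCC replicate 1 had none and LCC replicate 2 had 45.2 at 9:21987512. The H2030 H3K27ac summit is therefore not one that LCC lacked in both replicates.

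The next H3K4me3 site of the window was marked in every condition but not at one base. It scored 495 in TGFb, 563 in SO1 and 381 in H2030 between 9:21994151 and 9:21994257, and 386 in LCC at 9:21995603. H3K27ac showed another arrangement, lying at 9:21994142 in TGFb (258), 9:21994152 in SO1 (263), 9:21995588 in H2030 (232), and 9:21994143 and 9:21994217 in the LCC replicates (85.6 and 114). Both marks thus used the same pair of positions, and H2030 and LCC each had one mark at either of them: in LCC the H3K27ac summits were 1460 and 1386 bp from the H3K4me3 summit. Summits are single positions and peak widths were not used here, so a moved summit and a moved peak cannot be told apart. In equal-length lists the H3K27ac summits of TGFb (upper 10.6%), SO1 (8.23%) and H2030 (9.78%) lay between those of the LCC replicates (7.79% and 13.8%).

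The site at the upper end of the window, where CDKN2B comes last in the RefSeq order, was the most constant. H3K4me3 lay between 9:22009020 and 9:22009072 in all conditions and scored 460 in TGFb, 488 in SO1, 484 in H2030 and 417 in LCC. H3K27ac there scored 76.2 in TGFb, 56.5 in SO1, 178 in H2030, and 17.9 and 46.5 in the LCC replicates. In lists of equal length these were the upper 38.5% in TGFb, 42.2% in SO1, 14.9% in H2030, and 40.3% and 32.2% in LCC. The TGFb value lay inside the range of the LCC replicates, so no difference in H3K27ac rank with TGF-β1 could be seen at this TGF-β target gene. SO1 ranked just below both replicates and H2030 above both.

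CDKN1A encodes p21, the inhibitor induced by p53 and by TGF-β. At its promoter-like site H3K27ac ranked higher in TGFb, SO1 and H2030 than in either LCC replicate. Scores were 314 in TGFb, 243 in SO1, 172 in H2030, and 18.5 and 64.3 in the LCC replicates. In equal-length lists this placed the summit in the upper 6.20% in TGFb, 9.78% in SO1 and 15.6% in H2030, against the upper 39.7% and 25.4% in LCC. The LCC replicates were themselves apart, and no condition was 25 percentage points away from both, the limit used below. The H3K4me3 summit stood at 6:36646761 in TGFb (560), 6:36646780 in SO1 (477) and 6:36646783 in H2030 (465), and at 6:36647776 in LCC (351).

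An upstream element of CDKN1A, without H3K4me3 within 10 kb, was present in the H2087 conditions and not in H2030. Its H3K27ac scored 26.3 in TGFb, 70.4 in SO1, and 13.2 and 12.1 in the LCC replicates near 6:36635211, and the nearest H2030 summit was 12631 bp away. In equal-length lists TGFb (upper 61.7%) lay between the LCC replicates (48.5% and 65.3%) and SO1 (37.4%) above both. H3K4me1 there scored 36.2 in TGFb (6:36635453), 93.5 in SO1 (6:36634724) and 70.0 in LCC (6:36634747), with the nearest H2030 H3K4me1 summit 11335 bp away. The LCC summit was in the upper 3.13% and the SO1 summit in the upper 3.48% of the H3K4me1 lists, while the LCC H3K27ac summits ranked near the middle of theirs. At the promoter flanks H2030 did carry H3K4me1, with 60.2 at 6:36646082 (upper 1.83%) and 43.7 at 6:36649709. The strongest TGFb H3K4me1 summit also stood there, with 72.6 at 6:36645884.

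CDKN1B encodes p27, the inhibitor most closely tied to quiescence. Its strongest H3K4me3 and H3K27ac summits were present in every library. The single H3K4me3 summit scored 590 in TGFb, 637 in SO1, 485 in H2030 and 530 in LCC, and all lay within 60 bp. The strongest H3K27ac summit of the window belonged to the upper 0.0764% of the list in TGFb, 0.338% in SO1, 0.277% in H2030, and 0.160% and 0.121% in the LCC replicates, the highest ranks among the 7 windows in each of these libraries. Its scores were 535, 504, 437, and 272 and 400 in the same order. It did not coincide with H3K4me3: in LCC the H3K4me3 and H3K27ac summits were 7368 bp apart. The strongest H3K4me1 summit of the window scored 20.6 in TGFb (12:12868865), 49.8 in SO1 (12:12857395), 61.0 in H2030 (12:12857435) and 34.8 in LCC (12:12881146). At the place of the SO1 and H2030 ones, TGFb (16.7 at 12:12857432) and LCC (29.7 at 12:12857424) had H3K4me1 as well, though not as their strongest. APOLD1 lies downstream in the RefSeq order, and the files do not tell which gene the H3K27ac summit belongs to.

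**Figure D2:**
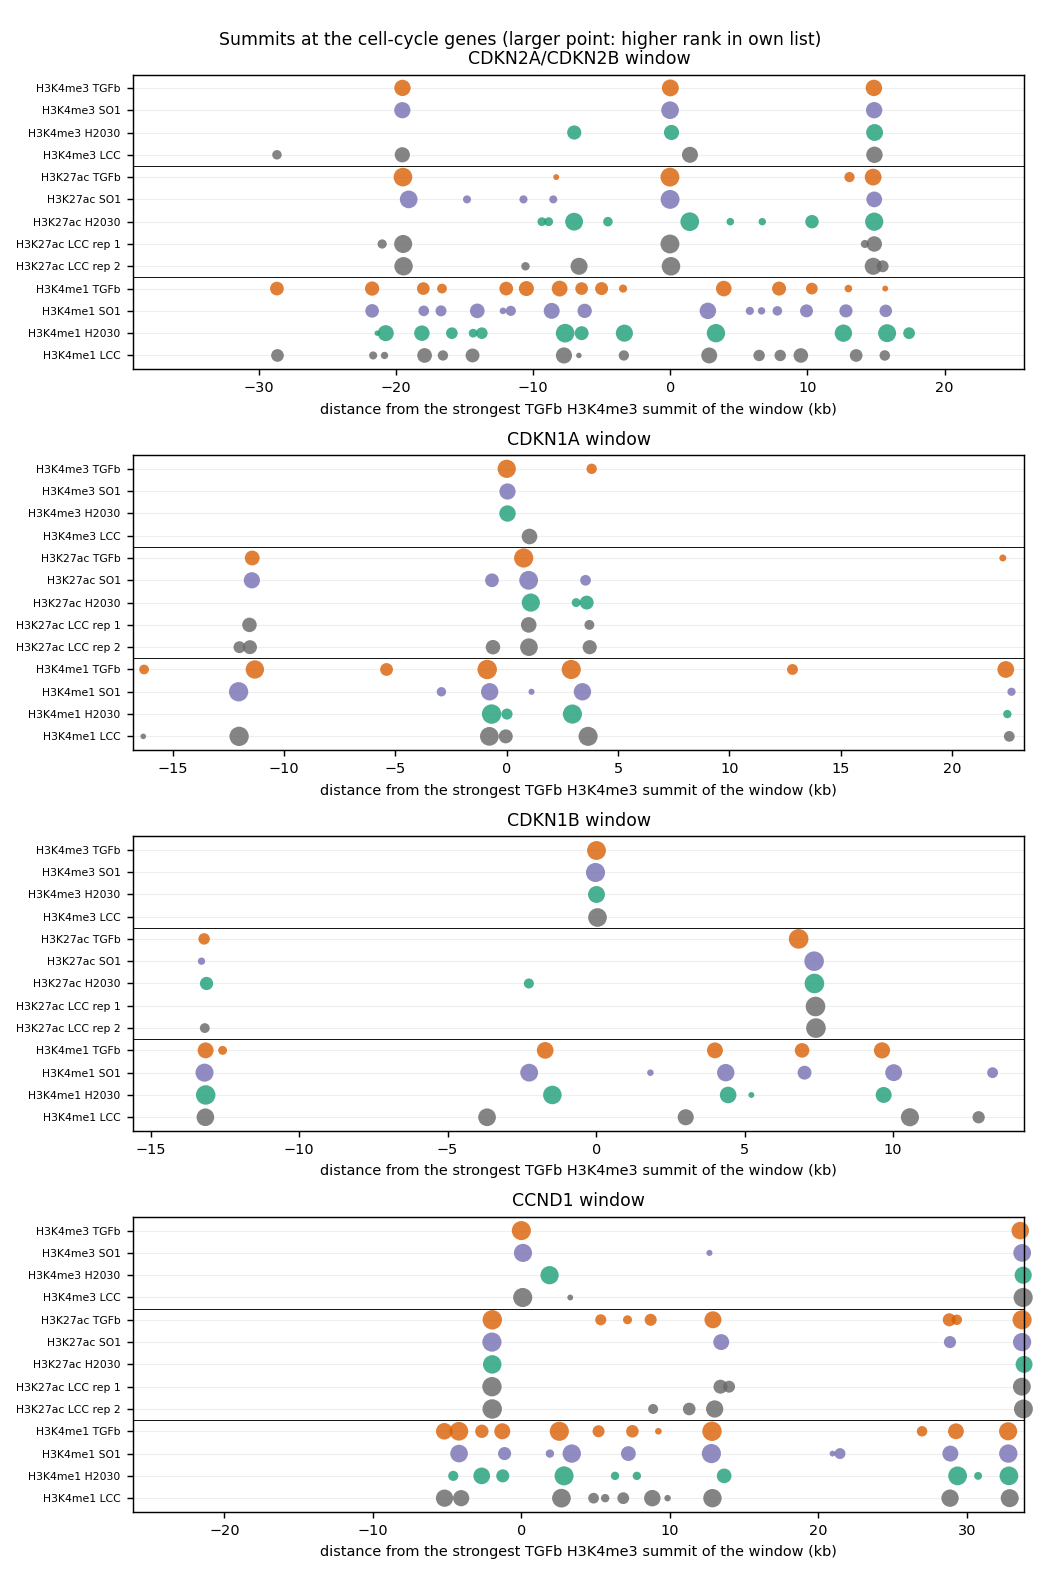
Summits of the 13 libraries at the CDKN2A/CDKN2B, CDKN1A, CDKN1B and CCND1 windows, by distance in kb from the strongest TGFb H3K4me3 summit (horizontal axis) and by library (vertical axis). Larger points stand higher in their own list. H2030 lacks the lowest H3K4me3 and H3K27ac site of the CDKN2A/CDKN2B window and the upstream element of CDKN1A.

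CCND1, the cyclin gene on the opposite side of this balance, had strong H3K27ac and H3K4me3 summits in every condition, though not at one place. The H3K27ac summit lay 1957 bp from H3K4me3 in TGFb, 2091 in SO1, 3860 in H2030, and 2072 and 2055 in the LCC replicates. H3K27ac lay at nearly one base (11:69454144 to 11:69454168) and scored 379 in TGFb, 311 in SO1, 204 in H2030, and 133 and 261 in the LCC replicates. The equal-length ranks were the upper 2.82% in TGFb, 5.35% in SO1, 12.3% in H2030, and 2.82% and 1.70% in LCC. TGFb thus lay within the range of the LCC replicates, and H2030 had the lowest rank. H3K4me3 scored 605 in TGFb (11:69456125), 585 in SO1 (11:69456235), 530 in H2030 (11:69458025) and 554 in LCC (11:69456218), and the H2030 summit lay 1807 bp from that of LCC.

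Beyond the promoter, CCND1 differed in its distal H3K27ac. At 11:69469028 to 11:69469584 H3K27ac scored 87.0 in TGFb and 61.8 in SO1, and 11.4 and 52.0 in the LCC replicates. In equal-length lists TGFb (upper 35.8%) and SO1 (40.3%) lay between the LCC replicates (52.7% and 29.8%). The nearest H2030 summit was 15368 and 14978 bp from those of LCC. H3K4me1 at this place scored 70.7 in TGFb (upper 2.21%), 86.5 in SO1, 9.13 in H2030 and 39.4 in LCC. The site was thus marked by H3K4me1 in all conditions and by H3K27ac in the H2087 conditions. TGFb had 4 further H3K27ac summits that LCC lacked within 1 kb, but their scores were only 5.10 to 12.9, below the TGFb list median of 20.9, and all 4 had LCC H3K4me1 within 453 bp. The strongest H3K4me1 summit of H2030 (40.7 at 11:69459000) and of LCC (45.5 at 11:69458825) stood nearer the promoter. One of the TGFb H3K27ac summits, at 11:69484943, was also present in SO1 with a score of 13.3.

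A second H3K4me3 site closed the CCND1 window at 11:69489721 to 11:69489917, and LTO1 lies downstream of CCND1 in the RefSeq order. H3K4me3 there scored 528 in TGFb, 568 in SO1, 493 in H2030 and 556 in LCC. H3K27ac scored 301 in TGFb, 181 in SO1, 75.7 in H2030, and 48.5 and 143 in the LCC replicates. Its equal-length ranks were the upper 7.05% in TGFb, 16.01% in SO1, 28.39% in H2030, and 17.73% and 9.46% in LCC. By rank, TGFb thus lay above both LCC replicates, SO1 between them and H2030 below both.

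At BHLHE40, 1 distal H3K27ac site ranked far higher in TGFb and SO1 than in LCC. It lies at 3:5036686 to 3:5037142. It scored 282 in TGFb (3:5037088) and 277 in SO1 (3:5037096), 12.4 in H2030 (3:5036686), and 13.1 and 10.7 in the LCC replicates. In equal-length lists it stood in the upper 8.56% in TGFb and 7.26% in SO1, against 56.7% in H2030 and 48.9% and 69.2% in LCC. TGFb and SO1 therefore ranked far above both replicates, and H2030 lay between them. H3K4me1 marked the place in the H2087 conditions, in the upper 21.3% of the list in TGFb, 7.82% in SO1 and 14.4% in LCC, so LCC had the H3K4me1 summit too (3:5037093). These were the strongest H3K4me1 summits of the window in TGFb, SO1 and LCC, and that of H2030 lay near the promoter-like site with 50.4 at 3:5018733. H2030 also had H3K4me1 of 28.3 at 3:5035203 (upper 13.9%), 1890 bp from the LCC summit. Weak H2030 H3K27ac of 8.29 lay beside it at 3:5035219. In LCC the nearest H3K4me3 summit was 8707 and 8506 bp from the H3K27ac summits.

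At the promoter-like site of BHLHE40 H3K4me3 lay within 167 bp in all conditions and scored 499 in TGFb, 557 in SO1, 520 in H2030 and 370 in LCC. H3K27ac stood between 3:5019762 and 3:5019921, in LCC 1825 and 1671 bp from H3K4me3, and scored 413 in TGFb, 265 in SO1, 341 in H2030, and 104 and 133 in the LCC replicates. The H3K27ac ranks in equal-length lists were the upper 1.67% in TGFb, 8.10% in SO1, 2.71% in H2030, and 5.33% and 10.9% in LCC. SO1 lay between the replicates and TGFb and H2030 above both. A weak H3K4me3 summit near 3:5028435 was present in TGFb (24.9), SO1 (37.9) and LCC (33.1) and missing from H2030. H3K27ac lay beside it in SO1 (72.1) and in LCC (26.6 and 35.3), but the nearest TGFb H3K27ac summit was 2249 bp from that of LCC replicate 1. In equal-length lists SO1 (upper 36.9%) lay between the LCC replicates (30.5% and 38.3%).

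On the far side of BHLHE40, an H3K4me1 summit of LCC with a score of 25.0 at 3:5007680 had no TGFb H3K4me1 summit within 11010 bp. SO1 carried it with 10.1 and H2030 with 3.06. It was the only summit of any mark in the 7 windows at or above its list's median that TGFb lacked within 10 kb.

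BHLHE41 encodes the repressor also called DEC2. The 2 outer H3K4me3 sites of its window were marked in every condition. The site at 12:26267112 to 12:26267166 scored 324 in TGFb, 386 in SO1, 484 in H2030 and 291 in LCC for H3K4me3, and the one at 12:26278598 to 12:26279416 scored 373, 456, 462 and 309 in the same order. H3K27ac at the first scored 91.6 in TGFb, 127 in SO1, 293 in H2030, and 33.0 and 48.0 in the LCC replicates. Its ranks in equal-length lists were the upper 34.7% in TGFb, 24.0% in SO1, 5.25% in H2030, and 25.7% and 31.4% in LCC, so H2030 ranked highest there. H3K27ac at the second scored 27.4 in TGFb, 312 in SO1, 122 in H2030, and 28.9 and 12.9 in the LCC replicates. Its ranks in equal-length lists were the upper 60.7% in TGFb, 5.26% in SO1, 21.5% in H2030, and 28.7% and 63.5% in LCC, so TGFb lay inside the spread of LCC, and SO1 and H2030 ranked above it, SO1 the highest. The LCC replicates differed here from each other by more than SO1 or H2030 differed from replicate 1. Between both sites, an H3K4me3 site at 12:26275295 to 12:26275783 was listed in TGFb (202) and LCC (153) only, where a wider peak with its summit elsewhere cannot be told apart from absence.

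A distal site of BHLHE41 at 12:26287813 to 12:26287887 carried H3K27ac in SO1 and LCC alone. It scored 56.8 in SO1 and 11.3 and 19.5 in the LCC replicates. In equal-length lists these were the upper 42.1% in SO1, and 52.9% and 52.0% in LCC. From LCC replicate 1 the nearest TGFb and H2030 H3K27ac summits were 8413 and 9261 bp away. TGFb had H3K4me1 there with 38.3, beside 61.0 in SO1 and 49.2 in LCC, whereas H2030 had no H3K4me1 summit at the site. Its LCC replicate 1 score lies below the list median of 12.6. The site was picked out after its values were seen. In TGFb, SO1 and LCC these H3K4me1 summits were the strongest of the window, whereas that of H2030 stood beside the first promoter-like site, with 70.0 at 12:26266447 in the upper 0.997% of its list.

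NR2F1 had 4 H3K4me3 sites in the H2087 conditions and 2 in H2030. The strongest lay between 5:92915767 and 5:92916941 and scored 585 in TGFb, 558 in SO1, 520 in H2030 and 480 in LCC. H3K27ac at this place scored 399 in TGFb, 282 in SO1, 210 in H2030, and 111 and 195 in the LCC replicates, in the upper 2.10%, 6.95%, 11.7%, and 4.54% and 4.64% of equal-length lists. TGFb ranked above both LCC replicates, and SO1 and H2030 ranked below them. H3K27ac near 5:92919222 in LCC replicate 1 (54.5) and at 5:92921240 in LCC replicate 2 (140) had no counterpart within 1 kb in any other library, the other replicate included.

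The second strong H3K27ac site of NR2F1, near 5:92900433, separated H2030 from the rest. It scored 332 in TGFb, 401 in SO1, 4.82 in H2030, and 121 and 171 in the LCC replicates. The ranks in equal-length lists were the upper 5.09% in TGFb, 2.03% in SO1, 85.3% in H2030, and 3.66% and 6.42% in LCC. H3K4me3 of 83.3 in TGFb, 181 in SO1 and 52.4 in LCC lay at 5:92899322 to 5:92899473, and the nearest H2030 H3K4me3 summit was 17468 bp from that of LCC. H2030 nevertheless had H3K4me1 there, with 24.5 at 5:92900768. NR2F1-AS1, an antisense RNA gene, stands just before NR2F1 in the RefSeq order, and the H3K4me3 sites were not assigned to either gene.

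The strongest H3K4me1 summit of the NR2F1 window scored 57.9 in TGFb (5:92900668) and 57.4 in SO1 (5:92901019), both next to the second H3K27ac site, 34.8 in H2030 (5:92926022), far from it, and 36.2 in LCC (5:92898723).

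The remaining NR2F1 sites lay to the right of the promoter-like one. Near 5:92939994 H3K4me3 scored 54.9 in TGFb, 133 in SO1 and 63.7 in LCC, and the nearest H2030 summit was 3817 bp from that of LCC. At 5:92943342 to 5:92943811 it scored 82.9 in TGFb, 211 in SO1, 47.8 in H2030 and 45.4 in LCC. H3K27ac beside the second site was listed in TGFb (6.76) and SO1 (14.1) and had no LCC summit within 12 kb, which makes it one of the few far new sites, though a weak one.

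**Figure D3:**
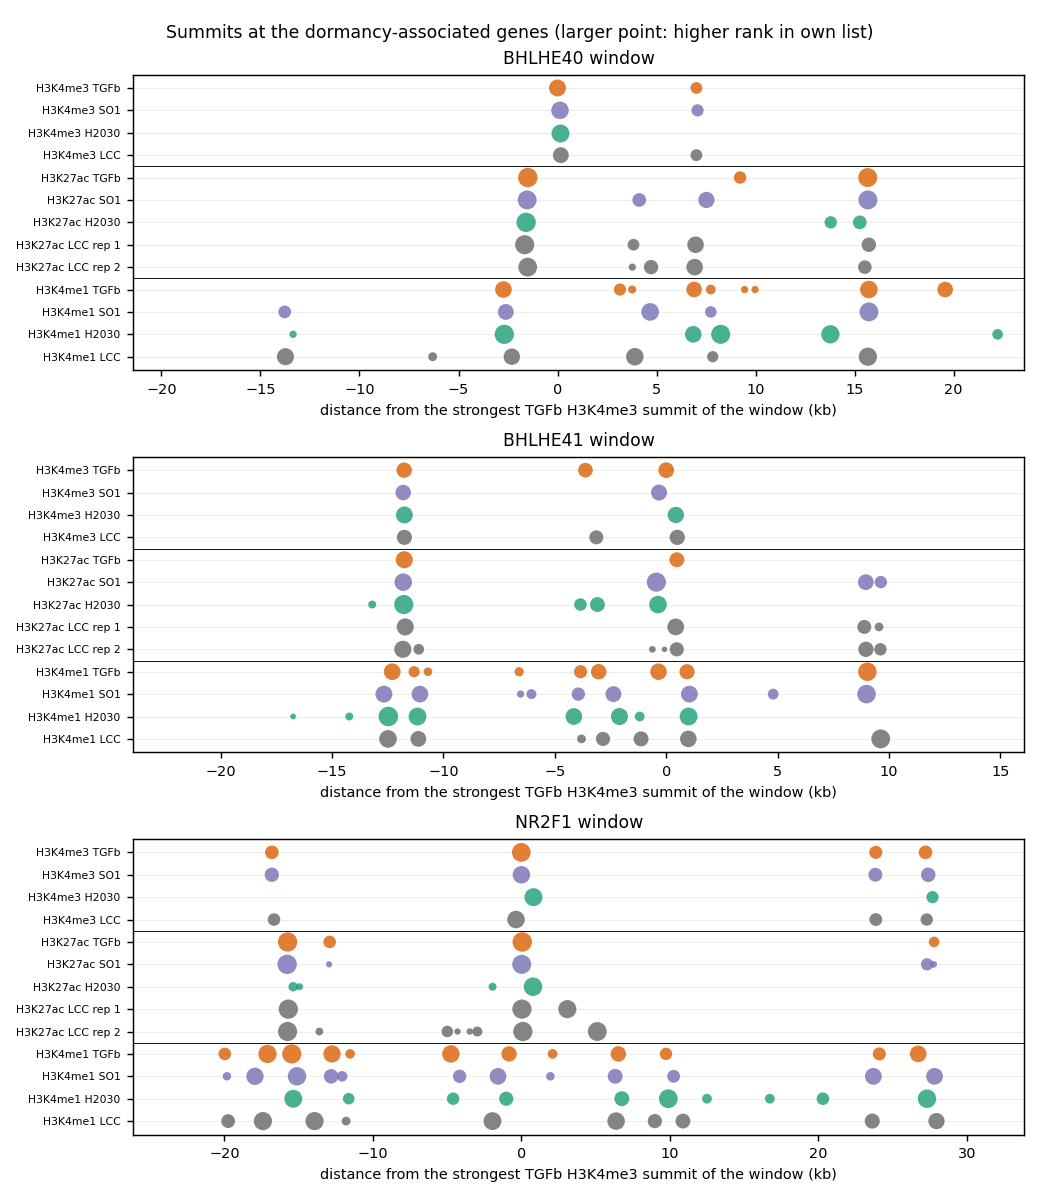
Summits of the 13 libraries at the BHLHE40, BHLHE41 and NR2F1 windows, by distance in kb from the strongest TGFb H3K4me3 summit (horizontal axis) and by library (vertical axis), with larger points for summits higher in their own list. At BHLHE40 the H3K27ac points on the right are large in TGFb and SO1 and small in H2030 and both LCC replicates.

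Over all windows, joining summits of a mark within 1 kb gave 49 H3K27ac, 80 H3K4me1 and 23 H3K4me3 sites. Present in all 4 conditions were 12 H3K27ac sites (24.5%, beside 20.1% of all sites joined this way over the genome), 30 H3K4me1 sites (37.5%, beside 21.1%) and 9 H3K4me3 sites (39.1%, beside 41.3%). H3K27ac sites found in 1 condition only numbered 5 in TGFb (10.2%, beside 9.23%), 1 in SO1 (2.04%, beside 5.97%), 10 in H2030 (20.4%, beside 17.3%) and 5 in LCC (10.2%, beside 10.9%). A further 5 H3K27ac sites (10.2%, beside 14.6%) and 5 H3K4me3 sites (21.7%, beside 14.3%) were shared by TGFb, SO1 and LCC without H2030. The H3K27ac shares listed so far lie near those over the genome. Sites shared by SO1 and LCC alone departed most from it, with 5 H3K27ac sites (10.2%, beside 2.44%). TGFb and LCC alone shared 1 H3K27ac site (2.04%, beside 6.497%). Whether the windows differ from the genome in these shares was not tested. The strongest H3K27ac summit of a window stood in the upper 10% of its full list in 6 of 7 windows in TGFb, 7 in SO1, 4 in H2030, and 5 and 4 in the LCC replicates. These counts depend on list length. In equal-length lists CDKN2A/CDKN2B in TGFb (upper 10.6%) and BHLHE40 in LCC replicate 2 (upper 10.9%) fell outside the upper 10%.

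Rank differences were then counted over all H3K27ac summits found in both LCC replicates and within 1 kb in the other condition. A summit was called when its rank in equal-length lists differed from both LCC replicates by at least 25 percentage points in one direction, a limit chosen after the ranks had been seen. TGFb ranked 1 of 16 summits in the windows higher, the BHLHE40 distal one, where 4.75% of all shared summits were called, and none lower (3.56% of all). SO1 ranked the same BHLHE40 summit higher, 1 of 22 (6.95% of all), and none lower (5.03%). H2030 ranked none of 13 higher (9.02%) and 1 lower, the NR2F1 site (7.29%). These shares lie close to those of the whole lists, so the windows did not stand out by the number of such summits. TGFb and SO1 are both set against the same LCC libraries, so their shared call is not a pair of independent results.

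**Figure D4:**
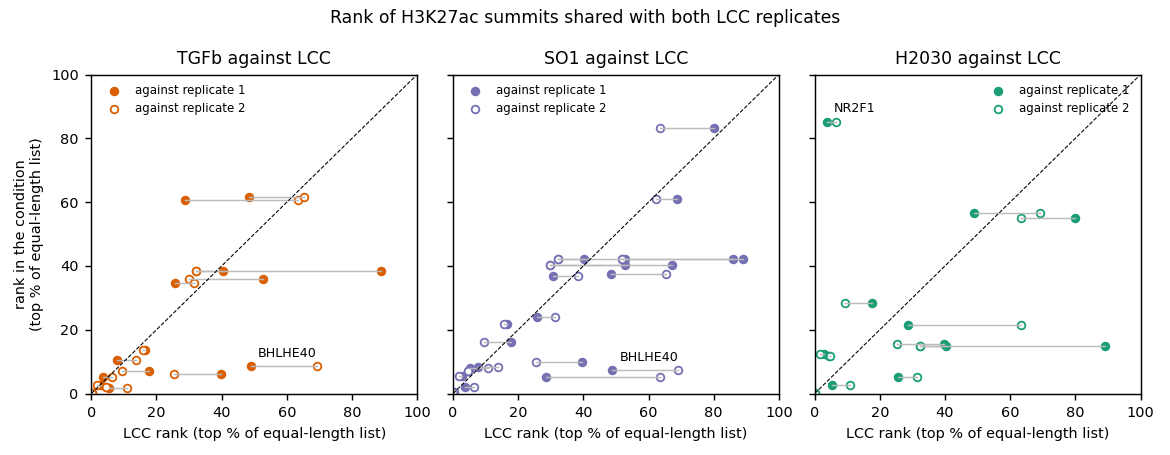
Rank of each H3K27ac summit of the windows that both LCC replicates carry, in the named condition (vertical axis) and in LCC (horizontal axis), as the share of an equal-length list that scores at least as high, so that low values are high ranks. Lines join the 2 LCC replicates, and the dashed line marks equal rank. The BHLHE40 summit lies at 8.56% in TGFb and 7.26% in SO1, and the NR2F1 summit at 85.3% in H2030.

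A summit was counted as new when LCC, in any of its libraries, had none of that mark within 1 kb, and as missing when LCC had one (in both replicates for H3K27ac) and the other condition had none within 1 kb. TGFb had 9 new H3K27ac summits of 27, or 33.3% (Wilson 95% interval 18.6 to 52.2, for counting error only), beside 28.9% of its whole list. It lacked 6 of 22 LCC summits, or 27.3% (13.2 to 48.2), beside 12.5%. The 9 new summits scored 2.78 to 12.9, all below the list median of 20.9, and 8 of them had LCC H3K4me1 within 1 kb, beside 65.5% of all new TGFb summits. The 6 missing ones comprised 2 each at BHLHE40 and BHLHE41 and 1 each at CDKN1A and CCND1. They numbered 16 without LCC replicate 1 and 8 without replicate 2.

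SO1 had the fewest new and the fewest missing H3K27ac summits at 1 kb, with intervals that overlap those of TGFb. It had 5 new summits of 29, or 17.2% (7.60 to 34.5), beside 25.5% of its list, and it lacked 0 of 22 LCC summits, an interval of 0 to 14.9% beside 19.7% of all such LCC summits. The new ones lay at NR2F1 (2), CDKN2A/CDKN2B (2) and CCND1 (1), with scores of 3.78 to 14.1, and 5 of 5 had LCC H3K4me1 within 1 kb, beside 65.8% of all new SO1 summits. The count of 0 depends on both replicates being required: 8 were missing without LCC replicate 1 and 2 without replicate 2, and new summits numbered 9 without replicate 2. In equal-length lists new summits numbered 4 in TGFb and 5 in SO1.

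H2030 had 13 new H3K27ac summits of 29, or 44.8% (28.4 to 62.5), beside 48.5% of its list, and lacked 9 of 22, or 40.9% (23.3 to 61.3), beside 47.9%. Of the new ones 7 lay at CDKN2A/CDKN2B, of 9 H2030 H3K27ac summits there (77.8%, 45.3 to 93.7). These 7 scored 3.59 to 11.2, below the H2030 list median of 15.5, with 1 exception. The exception was the summit of 232 at 9:21995588, 1371 bp from the nearest LCC one. Of the 13 new summits, 6 had LCC H3K4me1 within 1 kb, beside 35.3% of all new H2030 summits. Over all windows the shares of new and missing summits are near those of the whole lists. Without LCC replicate 1 the missing summits numbered 20. Between the LCC replicates themselves, 2 of 24 replicate 1 summits (8.33%, beside 15.8% of the list) and 13 of 38 replicate 2 summits (34.2%, beside 33.6%) were not found in the other, so replicates of one condition left shares unmatched as well.

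Most of these differences were gone when a summit up to 10 kb away was accepted. New H3K27ac summits were then 2 in TGFb (11.8% of the list were called), 2 in SO1 (12.5%) and 0 in H2030 (23.9%), and missing ones 0 in TGFb (3.19%), 0 in SO1 (7.98%) and 4 in H2030 (30.5%). Between the LCC replicates 0 replicate 1 summits (4.21%) and 1 replicate 2 summit (13.7%) remained unmatched. The 2 TGFb ones lay at NR2F1 and CDKN1A, and both SO1 ones at NR2F1 near 5:92943447. By their scores in LCC replicate 1, the H2030 losses at or above the list median were the CDKN1A upstream element and the lowest CDKN2A/CDKN2B site. By those of replicate 2, the CDKN1A element (12.1) lay below the median of 13.5 and the distal CCND1 site (52.0) above it.

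For H3K4me1, H2030 had 16 new H3K4me1 summits of 56, or 28.6% (18.4 to 41.5), beside 50.9%, and lacked 20 of 60, or 33.3% (22.7 to 45.9), beside 54.5%. Both intervals lie below the share of the whole list at this distance but not at 500 bp, where 31 of 56 were new (55.4%, 42.4 to 67.6, beside 62.4%) and 35 of 60 missing (58.3%, 45.7 to 69.9, beside 65.0%). The windows were also chosen around genes, and all 7 carry H3K4me3 in every condition, while the whole lists cover the genome. TGFb had 20 new of 70 (28.6%, beside 25.6%) and lacked 11 of 60 (18.3%, beside 25.4%). SO1 had 18 new of 64 (28.1%, beside 28.7%) and lacked 13 of 60 (21.7%, beside 34.9%). With 10 kb allowed, no H3K4me1 summit was new in TGFb (5.53% of the list), SO1 (7.73%) or H2030 (16.4%), and 1, 0 and 2 were missing (5.20%, 10.2% and 25.7%).

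For H3K4me3, TGFb had 3 new summits of 17 (17.6%, beside 15.5%) and lacked 4 of 18 (22.2%, beside 6.83%). SO1 had 2 of 16 (12.5%, beside 19.9%) and lacked 4 of 18 (22.2%, beside 11.7%). H2030 had 4 of 12 (33.3%, beside 32.0%) and lacked 10 of 18, or 55.6% (33.7 to 75.4), beside 32.9%. Some of these were displaced summits of one site: of the 3 new ones in TGFb, the strong ones at CDKN1A (560) and CDKN2A/CDKN2B (495) lay 1015 and 1431 bp from LCC. The other was a weak summit of 13.4 at 6:36650573 in CDKN1A, 2797 bp from LCC. Within 10 kb no H3K4me3 summit was new in TGFb, SO1 or H2030 (9.28%, 12.6% and 22.7% of the lists), none was missing in TGFb (3.24%) or SO1 (6.36%), and 3 were missing in H2030 (22.5%). Those 3 were the lowest CDKN2A/CDKN2B site, a weak LCC summit of 11.4 at 9:21965474, and the NR2F1 site of 52.4 at 5:92899473.

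**Figure D5:**
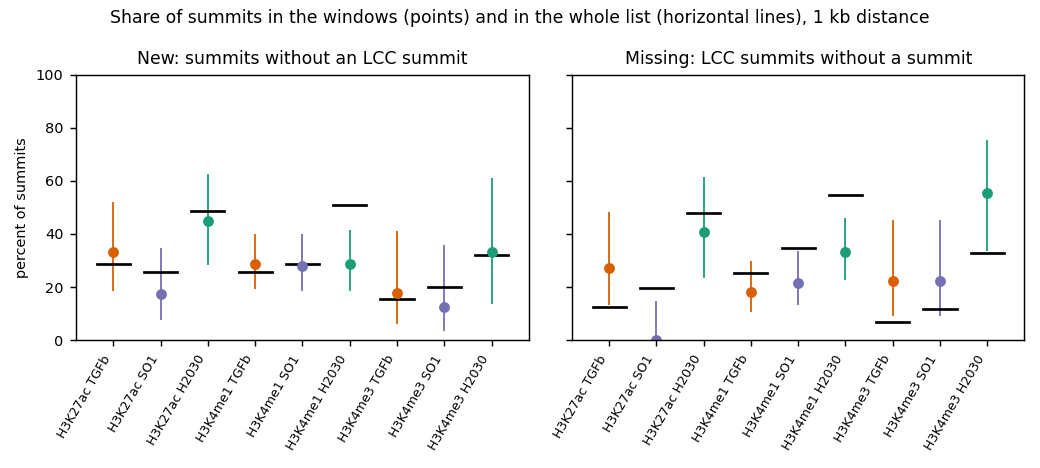
Percent of summits (vertical axis) that are new in TGFb, SO1 or H2030 (left) or that LCC has and the condition lacks (right), by mark and condition. Points with 95% Wilson intervals are the 7 windows and horizontal lines the whole lists. SO1 lacks 0 of 22 LCC H3K27ac summits, beside 19.7% of the whole list, and H2030 lacks 33.3% of the LCC H3K4me1 summits, beside 54.5% at 1 kb, a gap that is not clear of the interval at 500 bp.

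H3K27ac summits in the windows were divided by the H3K4 marks of the same condition. Those with H3K4me3 within 1 kb made up 9 of 27 in TGFb (33.3%, beside 32.3% of its list), 13 of 29 in SO1 (44.8%, beside 39.1%), 6 of 29 in H2030 (20.7%, beside 35.3%), and 10 of 24 and 12 of 38 in the LCC replicates (41.7% and 31.6%, beside 39.1% and 32.3%). Those with H3K4me1 but no H3K4me3 numbered 17 in TGFb (63.0%, beside 55.8%), 15 in SO1 (51.7%, beside 51.4%), 12 in H2030 (41.4%, beside 46.0%), and 9 and 16 in LCC (37.5% and 42.1%, beside 48.3% and 52.8%). These shares were near those of the lists, and that of H2030 with H3K4me3 was lower with an interval of 9.85 to 38.4. Summits with neither mark were 1 in TGFb (3.70%, beside 11.9% of its list), 1 in SO1 (3.45%, beside 9.53%), 11 in H2030 (37.9%, interval 22.7 to 56.0, beside 18.8%), and 5 and 10 in LCC (20.8% and 26.3%, beside 12.6% and 14.8%). H2030 and LCC thus had larger shares of H3K27ac summits without an H3K4 summit within 1 kb than TGFb and SO1 had. The interval of H2030 lies above those of TGFb (0.657 to 18.3) and SO1 (0.611 to 17.2), while those of both LCC replicates overlap all 3. Intervals count summits as independent, but most of the H2030 ones lay in the CDKN2A/CDKN2B window. Some summits just missed the limit. The H2030 summit at 6:36647842 in CDKN1A was 1059 bp from H3K4me3, and that of LCC replicate 1 at 9:21994143 was 1460 bp from it. Whether the conditions differ in this share was not tested.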

How the data were processed

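ChIP-seq peak summits of 13 libraries were used; the 5 input samples were not analysed here. The tools Bowtie2, SAMtools and deepTools and the build hg19 are named in the submitters' processing notes, while the peak caller is not given in the sources used here. The deposited summits of a library carry a score of the authors on the −log10 scale, taken to be a significance (p or q, not settled), since the lowest of any list, 1.30, lies just above −log10 of 0.05. Peak widths and read counts were not used here, so depth is unknown and intervals cover counting error only.

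Groups were taken from sample titles. Summits on chromosomes 1 to 22 and X were kept, leaving out 29 to 238 per library. Summits of one mark within 1000 bp were joined into sites. New and missing summits were called at 1000 bp and at 10000 bp, and equal-length lists kept the highest-scoring summits. The genes, windows and rules were chosen with earlier results of these data known. The sites given are the strongest per window, mark and library, new or missing summits at or above the list median without a counterpart within 10 kb, and sites picked out after their values were seen. Alternatives were sharing within 500 bp, a minimum score of 10, equal-length lists and leaving out each LCC replicate. Python 3.11.15, numpy 2.4.6, pandas 2.3.3, scipy 1.17.1 and matplotlib 3.10.9 were used. No hg19 annotation was used, and names and promoter sequences are from RefSeq GRCh38.p14.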

Additional observations from a re-analysis of the deposited data

How the results depend on the processing

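With summits shared within 500 bp, new H3K4me1 summits in the windows numbered 34 in TGFb, 28 in SO1 and 31 in H2030, and missing ones 24, 24 and 35. SO1 then had 4 new H3K4me3 and 2 missing H3K27ac summits, and LCC replicate 1 had 4 H3K27ac summits not found in replicate 2. With scores of at least 10, 303 of the 460 summits were left: H3K27ac kept 16 of 29 in H2030 and 22 of 38 in LCC replicate 2, and H3K4me1 kept 37 of 70 in TGFb, 41 of 64 in SO1, 29 of 56 in H2030 and 39 of 60 in LCC. New H3K27ac summits were then 3 in TGFb, 2 in SO1 and 4 in H2030, TGFb lacked 2 H3K27ac and SO1 lacked 8 H3K4me1 summits, SO1 had 1 new H3K4me3 summit, and the LCC replicates had 1 and 5 unmatched H3K27ac summits. With lists of equal length TGFb had 4 new H3K27ac and SO1 1 new H3K4me3 summits, and LCC replicate 2 had 8 unmatched. These shifts follow in part from the fewer summits that a stricter score or a shorter list leaves. Leaving out LCC H3K27ac replicates 1 and 2 in turn gave 9 to 12 new and 8 to 16 missing summits in TGFb, 5 to 9 and 2 to 8 in SO1, and 13 to 15 and 11 to 20 in H2030. The other counts of new, missing and unmatched summits stayed within 1.5 times their value.

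Of the 35 ranks of the strongest H3K27ac summits per window and library, 24 changed by less than the SD of the LCC replicates when lists were cut to equal length, and the largest change was 8.90 percentage points. The 24 include all ranks of LCC replicate 1, which could not change because its list is the shortest. This comparison was chosen after seeing the data. No paired analysis was possible because each condition other than LCC has 1 library per mark. Single summits do not show peak width, and unequal depth limits every count of absent summits.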
